A study of Mus musculus with 5 samples.

Results

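The Setd1 complex genes are 8 protein-coding genes for subunits of the Setd1 (Set1/COMPASS) histone methyltransferase complex: Setd1a, Setd1b, Cxxc1, Wdr82, Wdr5, Ash2l, Rbbp5 and Dpy30. They were taken by name from 22372 protein-coding genes as known subunits of the complex, not as a complete list. This choice was made with earlier results of these data known, and all 8 were found once in the gene annotation. The Setd1 complex places methyl groups on lysine 4 of histone H3, and the trimethylated form (H3K4me3) marks the promoters of active genes. Setd1a and Setd1b are alternative catalytic subunits, Cxxc1 (CXXC finger protein 1) binds unmethylated CpG DNA and Wdr82 joins the complex to the transcription machinery. Wdr5, Ash2l, Rbbp5 and Dpy30 form a core that the complex shares with the MLL-type methyltransferases.

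The study compared DP thymocytes (cells of the thymus that carry both CD4 and CD8, the most common stage there) from WT and Cxxc1-deficient mice. Per the study's methods, WT mice carried the floxed allele (Cxxc1 fl/fl) without Cre, and Cxxc1-deficient mice carried Cxxc1 fl/fl with hCD2-Cre, which expresses Cre in lymphoid cells and removes exons 4 and 5 of Cxxc1. The mice were a few weeks old unless otherwise specified, and how many were pooled for a library is not given in the sources used here. The genotype label of the deficient samples reads Cxxc1+/-, whereas their titles read KO.

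H3K4me3 ChIP-seq was read in 1 WT and 1 Cxxc1-deficient library, and Cxxc1 ChIP-seq in 1 WT library. Each measurement comes as a list of called 200-bp windows, each with its RPM, the number of mapped reads (tags) in the window scaled to the total of the library. With 1 library per group there is no replicate, no test and no p-value, and a difference between lists is a difference between libraries. A place without a window was not called and its signal is unknown, not 0. The WT H3K4me3 list held 99316 windows in 14237 peaks and the Cxxc1-deficient list 18403 windows in 2979 peaks, although 1 tag was worth 0.1056 to 0.1062 RPM in both, which corresponds to a depth between 9412000 and 9470000 tags. The Cxxc1 list held 20038 windows in 4352 peaks. Among 6 DP thymocyte markers found in the annotation, Cd8a, Cd8b1 and Cd3e had WT promoter windows, whereas Cd4, Rag1 and Rag2 had none. In the Cxxc1-deficient library Cd8a (1.5 RPM), Cd3e (1.9 RPM) and Rag1 (0.7 RPM) had them. Of 11 markers of B cells, myeloid cells, thymic epithelium and erythroid cells, 1 (Klf1, 0.9 RPM) had WT promoter windows. Over all protein-coding genes, 31.1% had WT promoter windows and 5.86% had Cxxc1-deficient ones.

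A promoter was the 1 kb on either side of each annotated protein-coding transcription start site (TSS) of a gene. In WT cells, 5 of the 8 genes had H3K4me3 windows at the promoter: both catalytic subunits, both Setd1-specific subunits Cxxc1 and Wdr82, and Wdr5 of the shared core. Over all protein-coding genes the percentage was 31.1 (95% Wilson interval 30.5 to 31.7%). In Cxxc1-deficient cells, 2 of the 8 had promoter windows, Wdr82 and Dpy30, against 5.86% of all genes (5.56 to 6.18%). Wdr82 was the 1 member with promoter windows in both genotypes, where 3.99% of all genes had them. With the stronger 50% of the peaks of each list 0 members had windows in both, and within 2.5 kb of a TSS 2 had them (Setd1a and Wdr82). Of the genes with WT promoter windows, 12.8% (12.1 to 13.6%) also had Cxxc1-deficient ones, and 1 of the 5 members did. Dpy30 had Cxxc1-deficient windows and no WT windows at its promoter, a pattern of 1.87% of all genes. Ash2l and Rbbp5 had no window in any of the 3 lists, either at the promoter or in the gene body plus 10 kb upstream. As over all genes, most members with WT promoter windows had no Cxxc1-deficient ones, so this count says nothing particular to the complex.

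**Figure D1:**
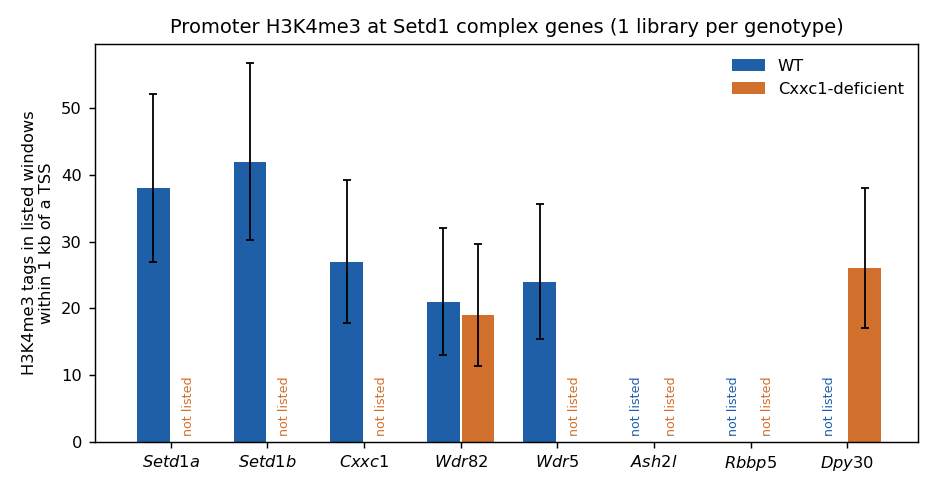
H3K4me3 tags (y axis) in the listed windows within 1 kb of a TSS of each gene (x axis), in the WT (blue) and the Cxxc1-deficient (orange) library; error bars are exact 95% Poisson intervals of the tag number and cover counting error only. Setd1a, Setd1b, Cxxc1 and Wdr5 have bars in WT alone, Dpy30 in the Cxxc1-deficient library alone, Wdr82 in both, and Ash2l and Rbbp5 in neither.

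Promoters with H3K4me3 in WT cells were richer in CpG, the dinucleotide that the CXXC domain of Cxxc1 binds. In the 250 bp before the first TSS, the median was 17 CpG over genes with WT promoter windows and 5 over those without, and 92.5% of all 22367 genes with sequence had at least 1. Both strands read the same for CG, so each dinucleotide was counted once. The members varied from 1 to 24. Wdr82 had 24, Cxxc1 20, Setd1a 19, Setd1b 15 and Wdr5 14, and these are the 5 with WT windows. The members without WT windows had fewer before the first TSS: Rbbp5 had 10, Ash2l 5 and Dpy30 1. The second Dpy30 start, where the Cxxc1-deficient windows lay, had 28, a number reached by 8.51% of all genes at their first TSS. A downstream start of Ash2l also held 34, with no windows near it.

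The 250 bases before a start are shown for 4 members, 1 for each outcome, in the mm9 assembly, 5′ to 3′ on the gene's strand, with each CG in capitals. They are Setd1a (WT windows only, chr7:134919934-134920183, plus strand), Wdr82 (windows in both genotypes, chr9:106073010-106073259, plus strand), Dpy30 at its second start (Cxxc1-deficient windows only, chr17:74715735-74715984, minus strand) and Rbbp5 (no windows, chr1:134373694-134373943, plus strand).
Setd1a: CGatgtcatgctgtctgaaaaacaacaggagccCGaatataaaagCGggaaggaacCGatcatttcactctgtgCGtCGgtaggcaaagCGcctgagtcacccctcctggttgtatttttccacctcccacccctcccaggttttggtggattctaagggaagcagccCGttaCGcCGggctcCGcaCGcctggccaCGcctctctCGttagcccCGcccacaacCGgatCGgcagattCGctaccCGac
Wdr82: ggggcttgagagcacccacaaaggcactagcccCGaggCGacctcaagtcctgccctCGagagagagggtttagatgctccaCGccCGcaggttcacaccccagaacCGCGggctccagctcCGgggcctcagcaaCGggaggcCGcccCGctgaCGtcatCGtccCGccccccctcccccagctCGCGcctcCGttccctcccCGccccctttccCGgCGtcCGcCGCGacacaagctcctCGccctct
Dpy30: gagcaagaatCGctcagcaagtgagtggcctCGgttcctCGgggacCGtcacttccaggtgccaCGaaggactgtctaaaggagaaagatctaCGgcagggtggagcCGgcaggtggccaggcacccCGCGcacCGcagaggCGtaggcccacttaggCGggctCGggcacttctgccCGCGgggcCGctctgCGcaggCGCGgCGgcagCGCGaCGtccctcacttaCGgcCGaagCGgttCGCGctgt
Rbbp5: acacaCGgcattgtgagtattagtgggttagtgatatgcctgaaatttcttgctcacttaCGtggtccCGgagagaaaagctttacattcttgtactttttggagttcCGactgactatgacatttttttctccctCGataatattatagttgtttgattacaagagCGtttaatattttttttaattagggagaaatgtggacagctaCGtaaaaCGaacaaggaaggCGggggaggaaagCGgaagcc
The number of CG in these stretches falls from 28 in Dpy30 and 24 in Wdr82 to 19 in Setd1a and 10 in Rbbp5. This order depends on the start shown. The later starts of Setd1a, also with WT windows only, held 27, 25 and 37.

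Setd1a (ENSMUSG00000042308.8, chr7:134920184-134943636, plus strand) encodes a catalytic subunit and has 4 annotated coding starts within 1025 bp. Its WT promoter peak ran over 2200 bp, from -383 to 1816 bp relative to the first start, and held 10 windows, 3.8 RPM and 38 tags (exact 95% Poisson interval 26.9 to 52.2). The window with the most signal, 0.7 RPM, was centred 1117 bp after the first start, next to the start at 1025 bp. A second WT peak of 2.1 RPM lay over the 3′ end of the gene, 1.02 kb from the TSS of the neighbouring gene Hsd3b7. In the Cxxc1-deficient library the promoter had no window. That library instead listed a peak of 2.1 RPM (21 tags, 13.0 to 32.1) between -3383 and -2184 bp relative to the first start, inside the neighbouring gene Orai3, where the WT library listed none.

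Setd1b (ENSMUSG00000038384.10, chr5:123592202-123617444, plus strand) encodes the other catalytic subunit. It has 3 coding starts, the second at 764 bp and the third at 21188 bp. Its promoters together held 12 WT windows with 4.2 RPM and 42 tags (30.3 to 56.8), and no Cxxc1-deficient window. Over the gene body and 10 kb upstream, the region carried 67 WT windows of 177, with 24.1 RPM and 241 tags (211.5 to 273.4), in 8 peaks of 1.7 to 4.7 RPM. That is 0.684 RPM per kb, exceeded by 0.517% of the 9276 genes with WT windows in that region (41.5% of all genes), and 0.873% of them had as many peaks. Of these peaks, 3 were centred before the gene, 4 in exons and 1 in an intron, and the 1 farthest upstream was centred 0.799 kb from the TSS of Rhof, a neighbouring gene. Setd1b shares this region with other transcripts. The lincRNA AI480526 starts at -527 bp relative to the first Setd1b start, so promoter windows there belong to both. Another lincRNA, Gm17627, is annotated over the centres of all 8 WT peaks and of the Cxxc1-deficient one, and the H3K4me3 of these transcripts and of Setd1b cannot be told apart.

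In the Cxxc1-deficient library, the same Setd1b region held 1 peak of 2.4 RPM (24 tags, 15.4 to 35.7), between 7999 and 9398 bp after the first start. It lay inside a WT peak of 4.6 RPM. The libraries shared 4 windows there, with 14 WT tags and 15 Cxxc1-deficient tags. These windows had to be called in both lists, so near-equal numbers do not show that the levels were alike. The whole peaks held 46 tags in 13 WT windows and 24 tags in 7 Cxxc1-deficient windows. Counting the whole region in the same way, 4 of the 8 members had Cxxc1-deficient windows (Setd1a, Setd1b, Wdr82 and Dpy30) against 11% of all genes. For WT windows these were 5 of the 8 members against 41.5% of all genes. The Cxxc1-deficient peak counted for Setd1a lay inside Orai3, and the length of the region was not matched between members and other genes.

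**Figure D2:**
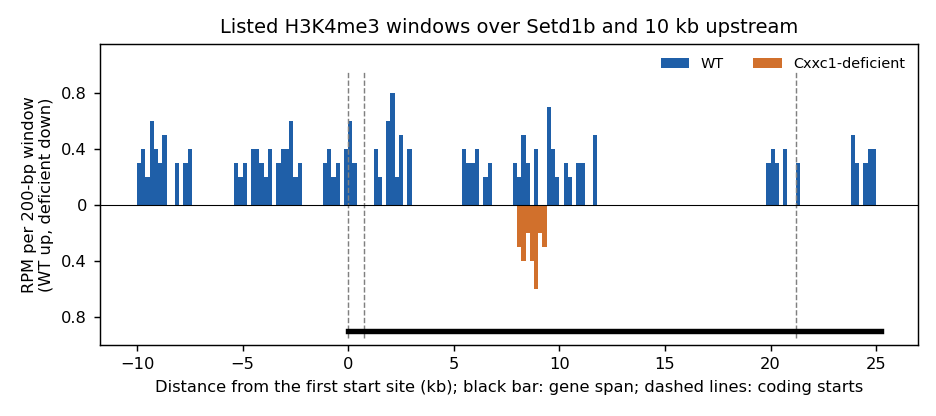
Listed H3K4me3 windows over Setd1b and the 10 kb before it, as RPM per 200-bp window (WT upwards in blue, Cxxc1-deficient downwards in orange) against the distance from the first start in kb. The WT library has 8 peaks across the region and the Cxxc1-deficient library 1, centred 8.7 kb after the first start.

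Cxxc1 (ENSMUSG00000024560.6, chr18:74375785-74381145, plus strand) is the subunit deleted in the study. For its promoter the H3K4me3 lists were read. The WT promoter held 7 windows with 2.7 RPM and 27 tags (17.8 to 39.3). The strongest window, 0.7 RPM, was centred at -84 bp relative to the TSS. A further WT peak of 3.0 RPM covered the region from 1816 to 4015 bp after the TSS, inside the gene, and another, of 1.7 RPM, was centred 0.272 kb from the TSS of Ska1, more than 8 kb upstream. The Cxxc1-deficient library had no window at the promoter, in the gene body or in the 10 kb upstream. The deletion itself is not checked by this, because uncalled windows have no value.

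Wdr82 (ENSMUSG00000020257.5, chr9:106073260-106094747, plus strand) encodes the WD-repeat subunit specific to Setd1 complexes, with coding starts 77 bp apart. Its WT promoter held 7 windows with 2.1 RPM and 21 tags (13.0 to 32.1). In the Cxxc1-deficient library the promoter held 5 windows with 1.9 RPM and 19 tags (11.4 to 29.7). All 5 of these windows were also in the WT list, where they held 15 tags. The 2 additional WT windows were at 0.2 and 0.4 RPM, and the Cxxc1-deficient value there is unknown. The counting intervals of the libraries overlapped, which with 1 library per genotype does not show that the levels were alike.

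Wdr5 (ENSMUSG00000026917.9, chr2:27370677-27392055, plus strand), the core subunit that binds the H3 tail and holds the complex together, had 6 WT windows at its first start, with 2.4 RPM and 24 tags (15.4 to 35.7). The strongest, 0.7 RPM, was centred at -576 bp relative to the TSS. Its second start, 4604 bp downstream, had no WT window, and the Cxxc1-deficient library had none at either start.

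Dpy30 (ENSMUSG00000024067.7, chr17:74698814-74723284, minus strand), the small core subunit that binds Ash2l, showed the opposite order. The Cxxc1-deficient library listed a peak of 6 windows with 2.6 RPM and 26 tags (17.0 to 38.1), centred 134 bp after the second annotated start, which is 7550 bp downstream of the first. The first start had no window in either genotype, and the WT library had no Dpy30 window at all. A peak of that strength was at the 82.4th percentile of the peaks of the Cxxc1-deficient list. The lowest peak of the WT list was 1.1 RPM, which sets no limit on the uncalled WT signal at this start. The other core subunits, Ash2l (ENSMUSG00000031575.10, chr8:26926663-26958166, minus strand), which pairs with Dpy30, and Rbbp5 (ENSMUSG00000026439.8, chr1:134373944-134402242, plus strand), had no windows at any of their 5 and 1 starts. The lincRNA 6030442K20Rik starts at -322 bp relative to Rbbp5 and shares that promoter.

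**Figure D3:**
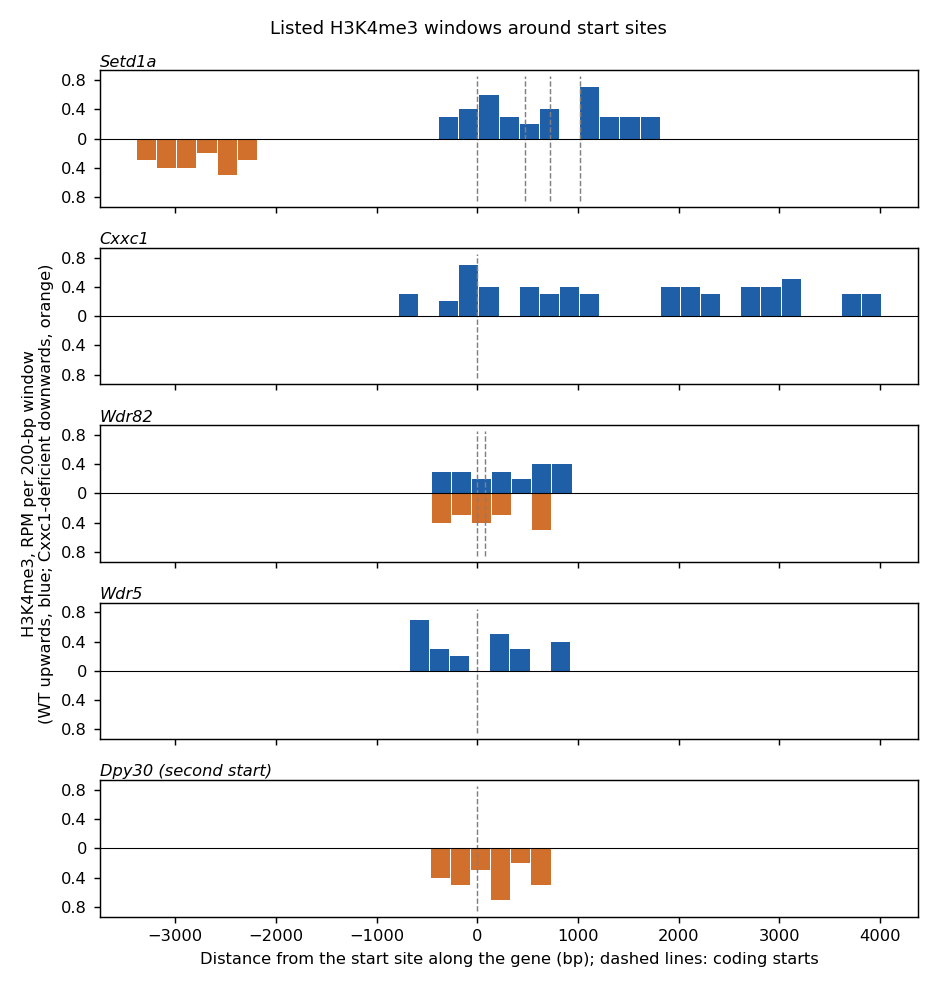
Listed H3K4me3 windows within 4 kb of a start, as RPM per 200-bp window (WT upwards in blue, Cxxc1-deficient downwards in orange) against the distance along the gene in bp; dashed lines are annotated coding starts. Windows of both libraries lie over the Wdr82 start, WT windows alone over those of Setd1a, Cxxc1 and Wdr5, and Cxxc1-deficient windows alone over the second start of Dpy30.

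The 5 genes listed in WT did not stand apart in level from other listed promoters. Because genes with several starts cover more bases, they were also compared at the first TSS alone, where 6524 genes had WT windows with a median of 2.3 RPM (quartiles 1.8 to 2.9). Cxxc1 was the highest at 2.7 RPM, the 69.2nd percentile, followed by Wdr5 at 2.4, Setd1a and Setd1b at 2.2 each and Wdr82 at 2.1, the 40.2nd percentile. Their tag numbers of 21 to 27 had overlapping counting intervals, so the order of neighbours is not resolved. With all starts counted, Setd1a and Setd1b were at the 90.5th and 93.8th percentile of listed genes, and at the first TSS both were at the 45.9th. In the Cxxc1-deficient library, Wdr82 was at the 58.9th percentile of 1174 genes listed at the first TSS, whose median was 1.8 RPM.

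**Figure D4:**
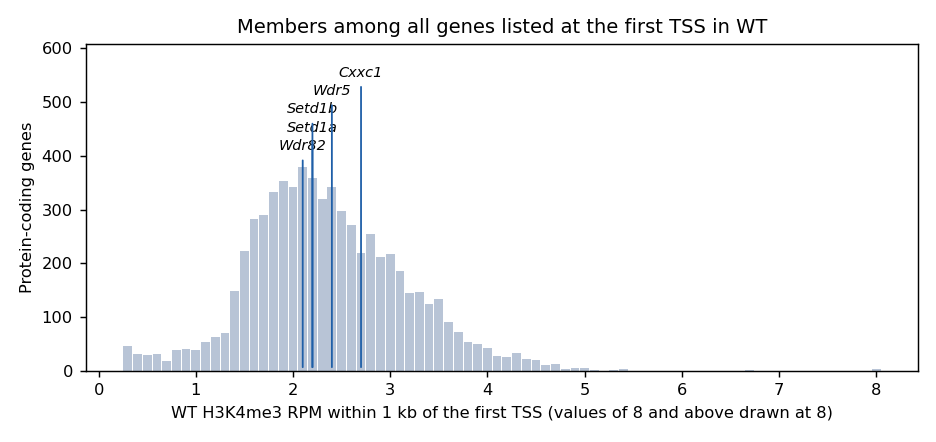
Number of protein-coding genes (y axis) by WT H3K4me3 RPM in the listed windows within 1 kb of the first TSS (x axis, steps of 0.1 RPM), with the 5 listed Setd1 complex genes marked by lines. All 5 lie between 2.1 and 2.7 RPM, between the quartiles of 1.8 and 2.9 RPM of the 6524 listed genes.

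Cxxc1 ChIP windows were then read over the same genes. In the gene body plus 10 kb upstream, 1 of the 8 members had any, against 11.1% of all genes (10.7 to 11.6%), and that member was Cxxc1 itself. The same held within 1 kb of a TSS (1 of 8, against 1.96% of all genes). The Cxxc1 windows there, 1.5 RPM together, were the 5′ end of a peak over the whole gene. They are therefore not read as promoter binding. The other 7 members, among them the 4 with WT H3K4me3 promoter windows, had no Cxxc1 window.

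Over its own gene, the Cxxc1 list held a single peak of 65.0 RPM and 596 tags (549.1 to 645.8), chr18:74376001-74381400. The gene span held 64.7 RPM in 25 of its 28 windows, more than any other gene in the gene body plus 10 kb upstream, where the median of genes with Cxxc1 windows was 1.9 RPM. The peak did not have the form of a promoter peak: the windows within 1 kb of the TSS summed to 1.5 RPM, and the 2 strongest, 6.9 RPM each, were centred 1916 and 2916 bp after the TSS. The first exon, mostly untranslated, had 1 of its 3 windows listed, at 0.3 RPM. The signal ran from about the second exon to the end of the gene, but fell over the last exon. It was 5.3 RPM in the window at 4916 bp (122 coding bp), 2.3 RPM at 5116 bp (56 coding bp) and 0.8 RPM at 5316 bp (0 coding bp).

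The rule that chose these genes describes this signal as following the coding exons. Among the listed windows, RPM showed little relation to the number of exonic or coding bases in a window, and 200-bp resolution cannot decide the point. The windows of the gene without a call, centred -84, 116 and 716 bp from the TSS, hold 0 coding bp. They have no RPM and are left out of the means and correlations below, so these do not compare the coding part of the gene with its 5′ end. Windows that touched an exon held 88.3% of the RPM, but 23 of the 28 windows of the gene touch one. The 14 listed windows with at least 100 exonic bp averaged 2.32 RPM (0.3 to 6.9), and the 11 with fewer averaged 2.93 RPM (0.2 to 6.9). Across the 25 windows, which are neighbours in 1 library, Pearson's r between RPM and exonic bp was -0.20. For coding bases alone, the 11 windows with at least 100 bp averaged 2.65 RPM and the other 14 averaged 2.54 RPM, and r was 0.02 (Spearman's rho 0.10). With the exons moved by up to 200 bp, a comparison chosen after the values were seen, r ranged from -0.20 with no shift to 0.58 at 150 bp downstream. Because r depends on this position and most windows touch an exon, a low r does not show that the signal ignores exons. The 4 listed windows with no exonic bp reached at most 4.5 RPM, and both 6.9 RPM windows touched exons. The floxed exons 4 and 5 were touched by 3 windows with 10.6 RPM together, of which 6.9 RPM were in 1 window that touches both.

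**Figure D5:**
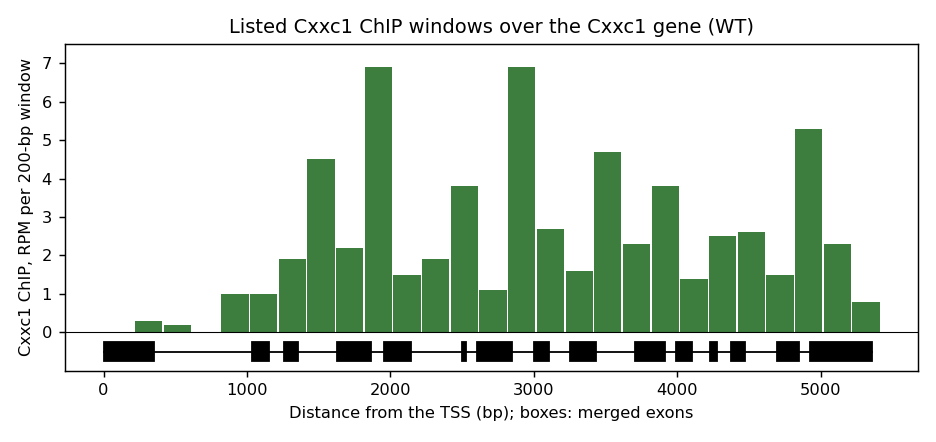
Cxxc1 ChIP signal in WT cells over the Cxxc1 gene, as RPM per listed 200-bp window (bars) against the distance from the TSS in bp, with the 15 merged exons as boxes below. The tallest bars reach 6.9 RPM, the windows near the TSS are at most 1.0 RPM, and the windows with no exonic bp reach at most 4.5 RPM.

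Ranked by Cxxc1 ChIP RPM in windows that touch exons, the 3 highest of 894 genes were Cxxc1 with 57.1 RPM, Myc with 14.9 RPM and Heatr7b1 with 6.9 RPM, where the median was 0.9 RPM. Myc, a transcription factor gene, had all 10 of its windows touching exons and 7 of them with at least 100 coding bp. In Heatr7b1, 33.3% of the gene's RPM lay in such windows. The origin of the signal over Cxxc1 and Myc was not tested, and the Cxxc1-deficient Cxxc1 ChIP was not analysed here.

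Genes of the H3K4 pathway and other genes with a CXXC zinc finger are given beside the shares over all genes. These shares were 31.1% for WT promoter windows, 5.86% for Cxxc1-deficient ones and 11.1% for Cxxc1 windows. More promoters were listed in WT among these genes and over all genes alike. Of 12 genes of MLL-type complexes, 7 had WT promoter windows and 0 had Cxxc1-deficient ones. Of 6 H3K4 demethylase genes, 3 had WT promoter windows and 0 had Cxxc1-deficient ones. Of 9 other genes with a CXXC zinc finger, 6 had WT promoter windows and 1, Kdm2b, had them in both genotypes. Kdm2b encodes a CpG-binding demethylase of Polycomb complexes. Its promoter held 8.3 RPM in WT and 0.6 RPM in the Cxxc1-deficient library. The latter is below the lowest peak of that list (1.1 RPM), so it is part of a peak that reaches past the promoter. The Cxxc1-deficient library held 3.1 RPM in the Kdm2b gene body plus 10 kb upstream. Cxxc1 windows lay in the gene body or 10 kb upstream of 4 of these 27 genes (14.8%), a count that does not set these genes apart. They were the H3K4 methyltransferase gene listed as Mll2 on chromosome 15 (Kmt2d), with 3.0 RPM, the 5-methylcytosine oxidase gene Tet1 and Kdm2b, with 2.2 RPM each, and the demethylase gene Kdm1a (Lsd1), with 1.3 RPM. Kdm1a was the 1 of these whose Cxxc1 windows were at the promoter, which also had 2.4 RPM of H3K4me3 in WT.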

How the data were processed

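Groups were taken from the sample titles, with 1 library each. No genotype is given in the Cxxc1 file. It was taken as WT because the methods call Cxxc1 islands in WT cells against input and the Cxxc1-deficient ChIP. The input and the Cxxc1-deficient Cxxc1 ChIP were not analysed here. Per the submitters' notes and the methods, base calls came from CASAVA 1.8.2, reads were mapped to mm9 and SICER 1.1 joined enriched windows into islands. The aligner and the treatment of duplicates are not given in the sources used here. The methods name input and the Cxxc1-deficient ChIP as SICER controls without saying whether this holds for H3K4me3 too. All of these bear on what is listed. The authors deposited 200-bp windows of called islands with their RPM at 1 decimal.

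Windows at most 2 missing windows apart were joined into peaks, and RPM were summed. Tags are RPM divided by the value of 1 tag, inferred from which decimals occur, and rounded (0.1083 to 0.1100 RPM for Cxxc1). The lowest listed window held 2 tags. Intervals (95%, exact Poisson or Wilson) cover counting error only. Genes were GENCODE vM1 protein-coding transcripts on the mm9 assembly, and a gene was listed if 1 or more windows overlapped its region. Python 3.11.15, numpy 2.4.6, scipy 1.17.1 and pysam 0.24.0 were used, and planted windows in simulated data were used to test the code. The members, the gene lists and the rules for naming genes were chosen with earlier results of these data known. Named were all members, coding neighbours and the 3 genes with most Cxxc1 RPM in exon windows. Genes of the H3K4 pathway and CXXC lists were named if they had Cxxc1 windows or windows in both genotypes. Alternatives were other promoter widths, the first TSS alone, the stronger 50% of peaks, other upstream distances and a minimum of exonic bp. Shifted exons were added later.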

Additional observations from a re-analysis of the deposited data

How the results depend on the processing

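No paired analysis was possible because there is only 1 library of each kind, and for the same reason no replicate could be left out. Of 31 alternative values for 9 results, 11 stayed within their limits, 20 moved and 0 reversed. Staying within limits does not mean unchanged. The 11 include 4 members with WT promoter windows instead of 5, and 3 members with Cxxc1-deficient ones instead of 2. All 9 results are counts or shares with no sign to reverse, so the 0 says little. WT promoter windows were found in 5 members at every width and at the first TSS, and in 4 with the stronger 50% of peaks, without Wdr82. Within 500 bp of a TSS, 30.2% of all genes had WT windows and 5.47% Cxxc1-deficient ones. Within 2.5 kb these were 33.1% and 6.51%, 13.7% of genes with WT windows had both, and so did 2 members, Setd1a joining Wdr82. At the most upstream TSS alone they were 29.2%, 5.25% and 11.8%, and 1 member, Wdr82, had Cxxc1-deficient windows, since those of Dpy30 lie at its second start. With the stronger 50% of peaks of each list they were 18.7%, 3.16% and 8.59%, 1 member (Dpy30) had Cxxc1-deficient windows, 0 members had both, and 6.33% of all genes had Cxxc1 windows. Cxxc1 windows were found at 9.23% of genes with 0 kb upstream and at 18.4% with 50 kb, where 2 members had them, Cxxc1 and Dpy30. Exon windows held 50.2% of the Cxxc1 gene's Cxxc1 RPM when at least 100 bp had to be exonic. A gene at about 20 tags rests on few windows, and signal below the calling threshold of either library is unknown.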
